A study of Mus musculus with 16 samples.

Results

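Named opposite-strand transcripts are noncoding genes that the mouse annotation calls after a gene on the other DNA strand, with the ending "os" (Ptgs2os lies opposite to Ptgs2). The members described here were the rows of the count table whose GENCODE M21 symbol ended in lower-case os, whose gene type was not protein_coding and which held at least 80 counts summed over the 16 libraries, leaving out Dhx58os, Slfn5os, Il1bos and Hk1os. This rule took 59 of the 200 such noncoding rows among 48440 rows in all. A further 138 rows lay under the minimum, of which 84 had no count, and 3 of the 4 rows left out by name exceeded it. Members were thus selected on their summed counts over all groups, and these sums are given as a description. Just inside the minimum were Lppos with 92 counts and Hectd2os with 90 counts, and just outside it were Myadml2os with 75 counts and Mypopos with 74 counts.

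The study asked how VLX-1005, an inhibitor of human 12-lipoxygenase, affects bone marrow-derived macrophages (BMDMs) at rest and during proinflammatory polarization. All BMDMs came from NOD.hALOX12 mice aged 8 weeks, in which human ALOX12 replaces mouse Alox15 on the diabetes-prone NOD background, so that no group carried the mouse gene, and all grew for 7 days in medium with M-CSF at 10 ng/mL. In the M1 VLX-1005 group, cells were treated with 10 μM VLX-1005, beginning with a pretreatment of 1 hour before an 18-hour stimulation in which LPS was at 10 ng/mL and IFN-γ was at 25 ng/mL. The M1 vehicle group received 0.1% DMSO in place of VLX-1005, and the M0 VLX-1005 and M0 vehicle groups were left unpolarized with the same agents. Each group had 4 libraries, and no source used here says whether these came from separate mice, so that the p-values take only the spread among these libraries into account, and that spread may be technical.

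An antisense RNA is transcribed from the strand opposite to another gene and can share exon, intron or promoter sequence with it. Such RNAs are known to act in several ways, among them pairing with the sense transcript, interference between polymerases that converge, and recruitment of chromatin modifiers, and many have no known function. In macrophages, long noncoding RNAs are among the transcripts that respond to LPS and IFN-γ, and several sit beside or opposite to inflammatory genes. Assigning a read to such an RNA rests on the strand of the read, since shared bases belong to both genes.

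Of the 59 members, 53 had the gene type antisense, 3 were processed transcripts, 2 were lincRNAs and 1 was a transcribed unitary pseudogene. They lay on 19 chromosomes, 11 of them on chromosome 11, and had 566 to 7442 exonic bases (median 1392). For 58 members an exon overlapped an exon of a row on the other strand, over a median of 304.5 bases or 21.5% of the member's own exons, with the longest overlap, 3255 bases, between Zfhx2os and Zfhx2. Ptgs2os shared no exon base and lay head to head with Ptgs2, 68 bases away. A total of 25 members lay inside the opposite gene, 17 overlapped it tail to tail, 12 overlapped it head to head and 4 spanned it. In 48 cases the row sharing the most exon bases was the gene that gave the member its name, for 2 of them under an older symbol (Prosc for Plpbp and Ict1 for Mrpl58). In 10 cases it was another gene, as for Brip1os, which lies 177 bases from Brip1 and shares 800 exon bases with Med13, a subunit of the Mediator kinase module.

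2 junctions are shown because they mark how little sequence can tie a member to its partner. Each is a stretch of the member's transcript read on the member's strand (GENCODE M21, mm10), with the bases that also lie in an exon of the opposite gene in capitals. Aknaos shares 6 bases with Akna, which encodes an AT-hook protein (chr4:63381716-63381733, plus strand). Ict1os shares 2 bases with Mrpl58, which encodes a mitochondrial ribosomal protein (chr11:115406586-115406599, minus strand).
Aknaos: atgaagcagtacCTCCTG
Ict1os: aaaattacttacCC
In both, the first capital is where an exon of the opposite gene ends, and the next bases on the opposite strand read GT, the first letters of most introns.

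Promoter windows of RefSeq (GRCm38.p6, 250 bases before to 50 after each start) were held for 38 of the 59 members. 3 of them are shown, from members among the largest changes: Rab10os, which rose in M1 cells, and Dnmt3aos and Bach2os, which fell. Capitals mark matches to the motifs searched on both strands. The windows are chr12:3235541-3235840 on the plus strand for Rab10os (its RefSeq start lies 287 bases from the GENCODE start), chr12:3862195-3862494 on the minus strand for Dnmt3aos and chr4:32571613-32571912 on the minus strand for Bach2os.
Rab10os: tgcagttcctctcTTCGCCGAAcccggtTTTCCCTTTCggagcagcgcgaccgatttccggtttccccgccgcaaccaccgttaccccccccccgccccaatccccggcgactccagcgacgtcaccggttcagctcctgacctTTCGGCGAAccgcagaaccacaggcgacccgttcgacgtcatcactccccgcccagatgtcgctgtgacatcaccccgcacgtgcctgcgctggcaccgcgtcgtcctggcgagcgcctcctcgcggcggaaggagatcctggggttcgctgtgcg
Dnmt3aos: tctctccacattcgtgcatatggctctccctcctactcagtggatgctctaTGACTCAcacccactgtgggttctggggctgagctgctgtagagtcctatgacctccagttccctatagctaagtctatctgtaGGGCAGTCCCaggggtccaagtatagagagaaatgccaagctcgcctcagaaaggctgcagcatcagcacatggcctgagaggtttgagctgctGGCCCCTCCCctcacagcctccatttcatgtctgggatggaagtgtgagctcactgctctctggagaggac
Bach2os: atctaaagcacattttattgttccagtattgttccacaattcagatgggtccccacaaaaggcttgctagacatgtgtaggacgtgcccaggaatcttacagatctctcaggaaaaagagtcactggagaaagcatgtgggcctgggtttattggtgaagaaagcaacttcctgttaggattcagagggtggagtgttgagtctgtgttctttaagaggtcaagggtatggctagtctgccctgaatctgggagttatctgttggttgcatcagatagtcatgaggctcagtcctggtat
The Rab10os window held an ISRE match (GAAA, any 2 bases, then GAAA, here on the other strand) and GAS matches (TTCNNNGAA), the elements known to bind interferon-activated factors. The Dnmt3aos window held NF-kB matches (GGGA, any 4 bases, then CC, here on the other strand) and an AP-1 match (TGANTCA). Matches of different motifs did not overlap in these windows. The Bach2os window held no match to any of the motifs searched, which also included CRE (TGACGTCA) and PU.1 (GAGGAAGT). Windows were also held for Ptgs2os, Aknaos, Hopxos and Arhgap15os, likewise among the largest changes, and none of these held a match. Across the 38 member windows, 18.4% held an NF-kB match, against 20.7% of all 32851 windows. An ISRE match was found in 5.26% of member windows and 3.44% of all windows, a GAS match in 10.5% and 8.3%, and an AP-1 match in 2.63% and 7.81%. CRE matches were found in 2.63% of member windows and 1.79% of all windows, and PU.1 matches in 0.0% and 3.2%. These are matches of letters in a window and not measured binding.

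The libraries held 939584 to 1158095 counts (median 1078304), and the members 1.393% to 1.558% of them. Macrophage markers (all 8 detected) summed to 311.4 to 358.8 CPM (counts scaled to the normalized library size) in M1 VLX-1005 libraries, 294.8 to 355.9 in M1 vehicle, 303.5 to 326.7 in M0 VLX-1005 and 309.3 to 373.1 in M0 vehicle. All 5 neutrophil markers, Cd3e, Ms4a1, Flt3, Zbtb46 and Dcn were at 0 in their own rows. Dendritic cell markers (Xcr1 and Clec9a detected) summed to 166.5 to 227.5 CPM in M1 VLX-1005 and 178.0 to 259.6 CPM in M1 vehicle libraries, against 3.40 to 5.95 CPM in M0 VLX-1005 and 6.38 to 9.13 CPM in M0 vehicle libraries. T cell markers (3 of 4 detected) summed to 126.6 to 151.0 CPM in M1 VLX-1005 and 153.3 to 164.0 CPM in M1 vehicle libraries, against 310.1 to 376.0 CPM in M0 VLX-1005 and 316.4 to 351.9 CPM in M0 vehicle libraries, and the part of either list in the results was not tested. 3 M0 libraries stood apart on the second principal component of all rows tested (2.6% of the variance), at 8.5 for M0 vehicle 2, 18 for M0 vehicle 3 and 15.1 for M0 VLX-1005 3, with the other M0 libraries between -12.6 and -3.0. Counts of members and of pairs are given with and without them. In bulk RNA, fewer cells of a type and less RNA per cell cannot be told apart.

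The strand on which reads were counted bears on every value of a member. Libraries were strand-specific, but the sources used here do not state how strand was handled in counting, so the reads of a member and of the gene opposite to it cannot be told apart. Rows with an exon overlap on the other strand (8031 rows) held 96.19% to 96.87% of the counts of each library. Of mitochondrial counts, 89.16% to 95.76% lay in rows on the minus strand, whereas most mitochondrial genes are annotated on the plus strand. The M1-like marker genes (Nos2, Il12b, Cxcl9, Cxcl10, Il6, Tnf, Cd86 and Ptgs2) held 1028 counts in their own rows, and the rows opposite to 1 of them, Cxcl10, held 107150 counts. Whether reads were counted on the strand opposite to their transcript was not tested, and a member row may hold reads of the gene opposite to it. Changes are therefore given as changes of rows, each read with the row on the other strand.

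Within the pairs, nearly all counts lay in the noncoding row. The member row held a median of 98.66% of the counts of member and opposite row together, more than 90% in 46 of 59 pairs and less than 50% in 5 pairs. Among 651 other antisense rows over the same minimum with a protein-coding row opposite, the median was 98.96%, with 548 over 90% and 20 under 50%. In both sets the minimum was on the noncoding row alone, so that a high share was in part built into the choice of rows. The opposite rows summed to 0 to 7232 counts (median 25), and 5 of them had no count in any library. For example, Kdm6bos held 3112 counts and Kdm6b, which encodes a histone H3 lysine demethylase, held 14. The rows of Prss23, a serine protease, and Hopx, a homeodomain-only cofactor, were at 0 beside 1020 counts in Prss23os and 135 counts in Hopxos.

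The 5 pairs in which the protein-coding row held more counts were those of Zfp335os (2.94% in the member row), Ptgs2os (23.7%), Dnmt3aos (34.3%), Lppos (40.0%) and Acss2os (42.2%). In the pair of Zeb2os and Zeb2, a transcription factor of macrophage identity, both rows were abundant and the share in Zeb2os was 54.5% in M1 VLX-1005, 52.7% in M1 vehicle, 54.7% in M0 VLX-1005 and 53.3% in M0 vehicle. The Zfp335 row (6000 counts) also shares 1107 bases with the exons of Pcif1 on the strand of Zfp335os, and the Pcif1 row held 3987 counts.

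**Figure D1:**
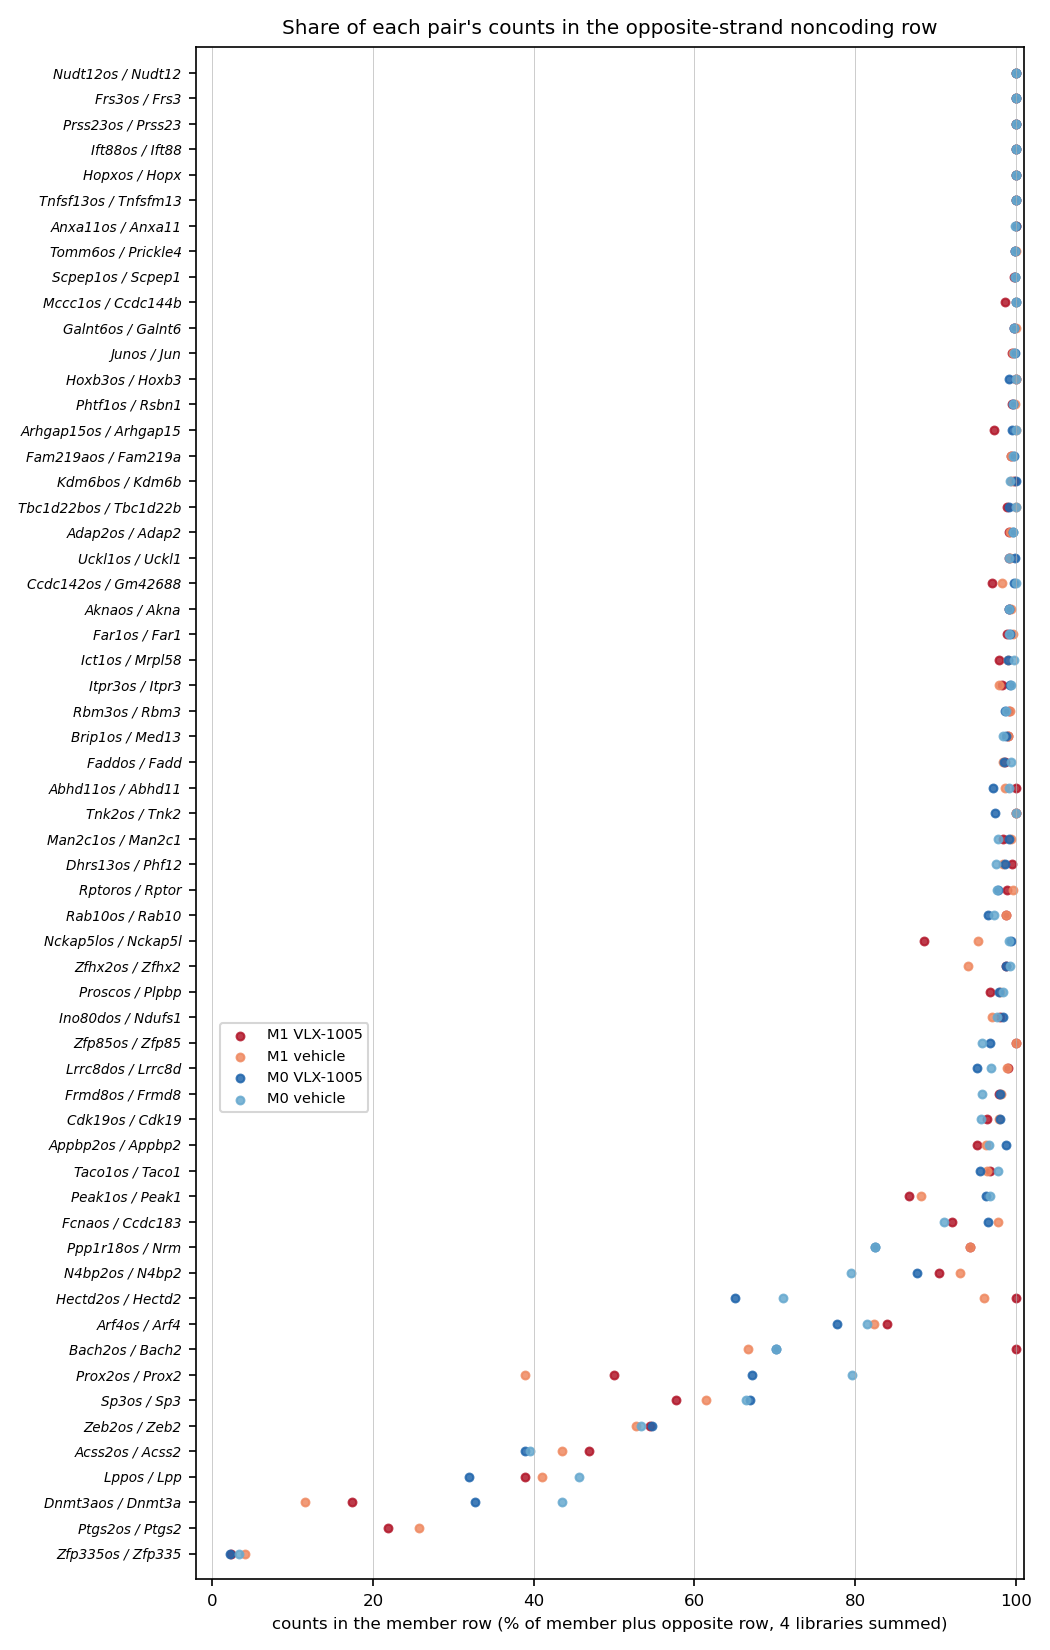
Each row is a member and the gene opposite to it, and the horizontal axis gives the counts in the member row as a percent of both rows, with the 4 libraries of a group summed. Points are the 4 groups (Ptgs2os has no M0 points, since both rows were at 0), and 46 of 59 members lie over 90% across all libraries.

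Rab10os, Brip1os and Adap2os were the most abundant members over all libraries, together holding 35.5% of all member counts. They were also the 3 highest in each M1 group, whereas in M0 vehicle libraries Scpep1os (1087 CPM) and Tomm6os (1015 CPM) followed Adap2os (1286 CPM) and lay above Rab10os and Brip1os. Per kilobase of exon, Adap2os had 1840 and Scpep1os 1717 CPM per kb over all libraries, and in M0 vehicle libraries Scpep1os had 1341 and Adap2os 1307 CPM per kb. All 3 were higher in M1 than in M0 libraries. Brip1os (chr11:86201370-86304443, plus strand) had 3300, 2624, 3490 and 3535 CPM in M1 VLX-1005 libraries and 2803, 3141, 3747 and 3462 CPM in M1 vehicle libraries, against 614.1, 598.1, 624.1 and 640.6 CPM in M0 VLX-1005 libraries and 656.6, 613.8, 628.9 and 658.3 CPM in M0 vehicle libraries. M1 and M0 libraries did not overlap, with an increase of 2.36 ± 0.09 (log2 fold change ± SE) between the vehicle groups (adjusted p = 2.7e-16) and of 2.39 ± 0.09 between the VLX-1005 groups (adjusted p = 2.38e-16). All adjusted p-values of single rows are from edgeR's quasi-likelihood test with 4 libraries a group, corrected over all 3453 rows tested, and a row is said to have risen or fallen where this value was under 0.05.

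Rab10os (chr12:3235504-3250377, plus strand) overlaps the end of Rab10, a small GTPase of vesicle transport, by 143 exon bases. It had 3082, 2729, 2920 and 3084 CPM in M1 VLX-1005 libraries and 2932, 2978, 3009 and 2786 CPM in M1 vehicle libraries, against 856.8, 847.4, 911.3 and 864.3 CPM in M0 VLX-1005 libraries and 894.4, 861.6, 891.3 and 938.5 CPM in M0 vehicle libraries. The M1 libraries were all above the M0 libraries (log2 fold change 1.71 ± 0.06, adjusted p = 1.85e-17 with vehicle, and 1.76 ± 0.06, adjusted p = 1.05e-17 with VLX-1005). Adap2os (chr11:80158861-80177629, minus strand) lies inside Adap2, which encodes a GTPase-activating protein for Arf proteins. It averaged 2246 ± 182 CPM in M1 VLX-1005 libraries and 2354 ± 77.2 CPM in M1 vehicle libraries, against 1356 ± 80.01 CPM in M0 VLX-1005 libraries and 1286 ± 92.4 CPM in M0 vehicle libraries (SD, n = 4 each). Its increase was smaller, 0.87 ± 0.07 with vehicle (adjusted p = 9.74e-11) and 0.73 ± 0.07 with VLX-1005 (adjusted p = 2.15e-09).

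Across the members, more rows fell than rose with polarization. The numbers of higher and lower members are in part bound up with the selection, which asked for 80 counts over all groups. Among the members lower with vehicle, Bach2os, Dnmt3aos, Hopxos, Prox2os, Nudt12os and Prss23os reached that minimum through the M0 groups. Frs3os and Tnk2os, which were lower with VLX-1005 and not with vehicle, also reached it through the M0 groups. Ptgs2os, which was higher, reached it through the M1 groups. Of the 57 members that passed the filter on low counts (Lppos and Hectd2os did not), 14 were higher (24.6%) and 25 were lower (43.9%) in M1 vehicle than in M0 vehicle libraries, beside 31.7% higher and 34.8% lower among all rows tested. With VLX-1005, 14 were higher and 26 were lower, beside 31.5% higher and 33.8% lower among all rows. Other antisense rows (647 tested) had 32.5% higher and 40.0% lower with vehicle. The median log2 fold change of the members was -0.26 with vehicle and -0.23 with VLX-1005, and that of all rows was -0.10 and -0.08. In 14 members no M1 vehicle library overlapped an M0 vehicle library from above and in 20 from below, beside 29.1% and 29.5% of all rows. With VLX-1005 these were 14 and 23 members, beside 28.8% and 30.4% of all rows. In either direction, 39 members passed with vehicle and 40 with VLX-1005, beside 66.5% and 65.3% of all rows. A fold change over 2 with an unadjusted p under 0.05 was met by 7 higher and 13 lower members with vehicle (42.6% of all rows) and by 7 higher and 15 lower members with VLX-1005 (41.4% of all rows).

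**Figure D2:**
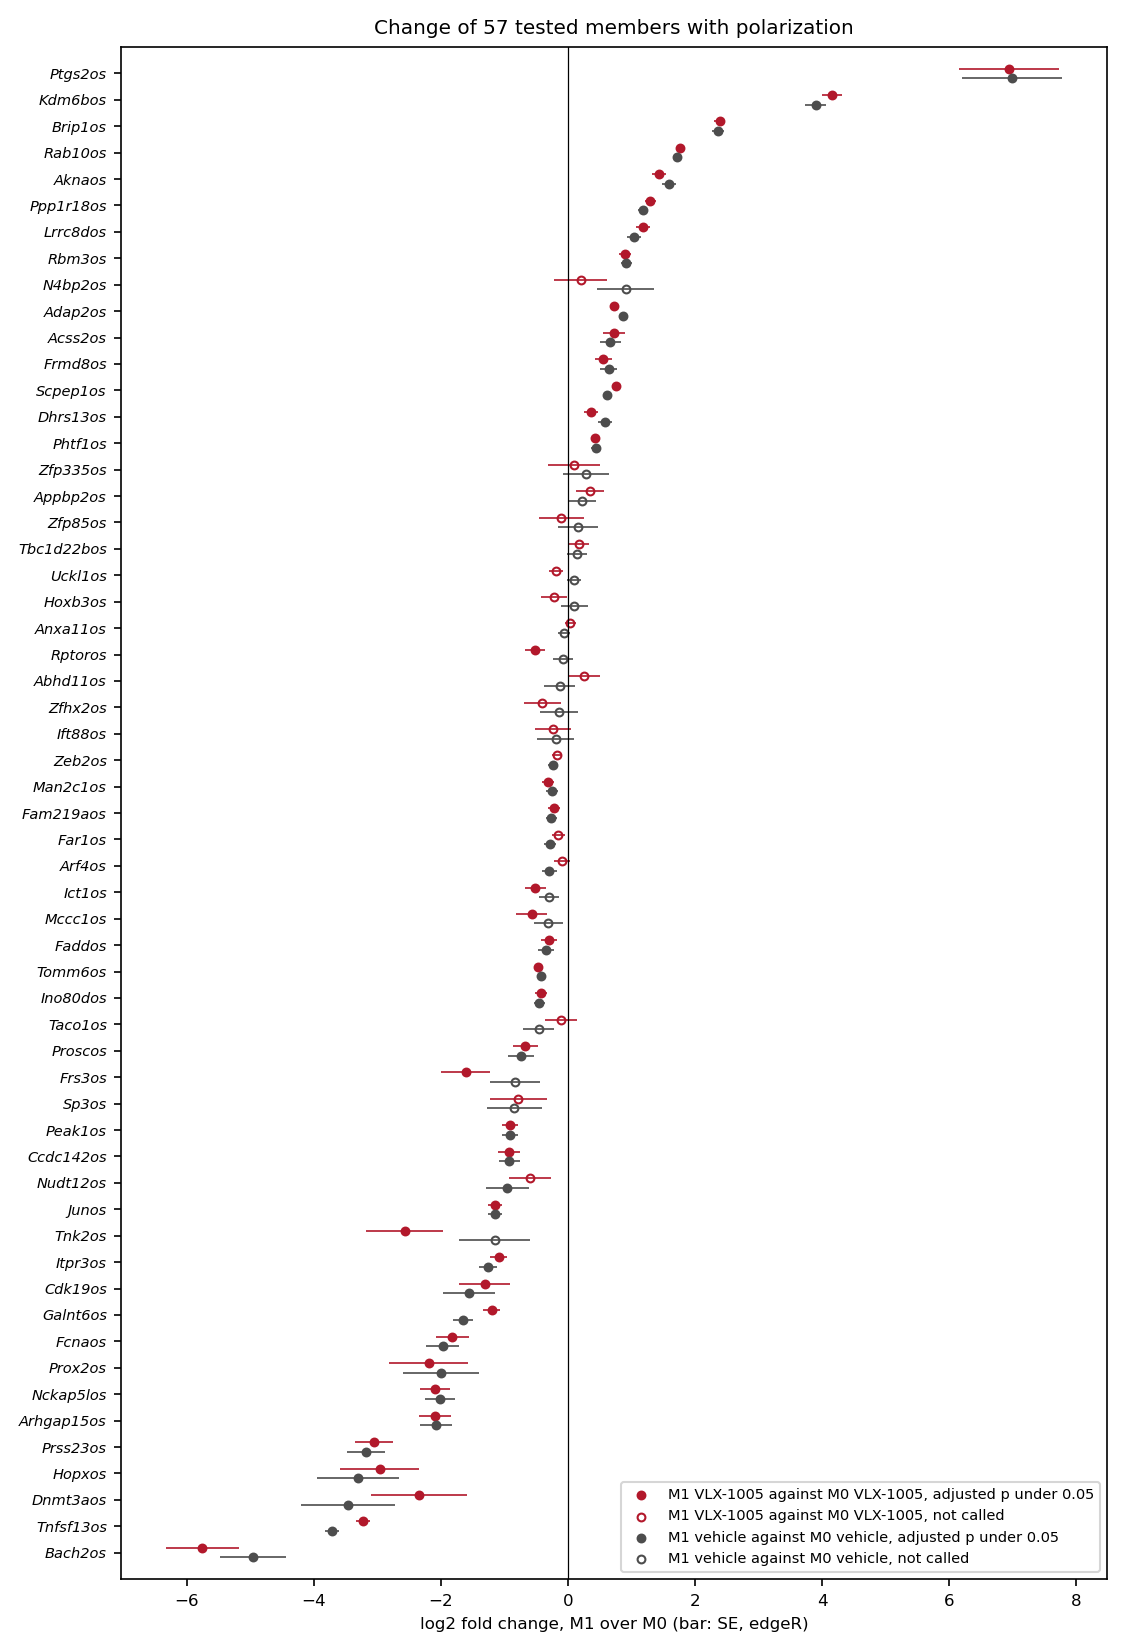
Log2 fold change (M1 over M0) with its SE for the 57 tested members, M1 VLX-1005 against M0 VLX-1005 above M1 vehicle against M0 vehicle within each member, from 4 libraries a group. Filled points passed an adjusted p under 0.05, and fitted values run from 6.99 for Ptgs2os, which had no count in M0, to -4.95 for Bach2os with vehicle.

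The 6 largest increases with vehicle were those of Ptgs2os, Kdm6bos, Brip1os, Rab10os, Aknaos and Ppp1r18os. Kdm6bos (chr11:69401513-69402700, plus strand) had 389.4, 363.9, 419.3 and 433.6 CPM in M1 VLX-1005 libraries and 400.6, 374.7, 481.4 and 452.4 CPM in M1 vehicle libraries, against 20.22, 34.22, 18.33 and 16.16 CPM in M0 VLX-1005 libraries and 28.51, 21.52, 29.66 and 34.43 CPM in M0 vehicle libraries. The M1 libraries lay far above the M0 libraries, by 3.90 ± 0.16 with vehicle (adjusted p = 1.16e-15) and 4.16 ± 0.16 with VLX-1005 (adjusted p = 6.31e-16). The Kdm6b row held 4 counts in M1 VLX-1005, 9 in M1 vehicle, 0 in M0 VLX-1005 and 1 in M0 vehicle libraries, too few to be tested.

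Ptgs2os (chr1:150074873-150099963, minus strand) is read away from the promoter of Ptgs2, which encodes the inducible cyclooxygenase of prostaglandin synthesis. It had 17.5, 12.51, 14.33 and 12.72 CPM in M1 VLX-1005 libraries and 17.53, 7.371, 20.06 and 13.94 CPM in M1 vehicle libraries, and no count in any M0 library. With 3 counts over an M0 group as the floor, Ptgs2os was at least 24.9-fold higher with vehicle (adjusted p = 7.74e-07) and at least 24.7-fold higher with VLX-1005 (adjusted p = 8.31e-07). The Ptgs2 row had 51.3 ± 1.46 CPM in M1 VLX-1005 and 43.0 ± 7.79 CPM in M1 vehicle libraries and no count in M0 libraries, at least 71.8-fold higher with vehicle and at least 88.2-fold higher with VLX-1005. These rows share no exon base, and Ptgs2os reached the minimum of 80 counts through the M1 groups alone.

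Aknaos (chr4:63381358-63394018, plus strand) averaged 366 ± 38.4 CPM in M1 VLX-1005 and 412 ± 18.6 CPM in M1 vehicle libraries, against 136 ± 18.8 CPM in M0 VLX-1005 and 137 ± 21.4 CPM in M0 vehicle libraries (SD, n = 4 each). It rose by 1.59 ± 0.11 with vehicle (adjusted p = 2.88e-11) and by 1.43 ± 0.11 with VLX-1005 (adjusted p = 1.92e-10). Aknaos lies inside the Akna gene and shares 6 bases with its exons, and the Akna row held 6 to 10 counts a group. Whether reads of Akna add to the Aknaos row was not tested. Ppp1r18os (chr17:35860918-35866886, minus strand) spans Nrm, which encodes a nuclear membrane protein, and also overlaps Ppp1r18, a regulatory subunit of protein phosphatase 1. It averaged 364 ± 8.11 CPM in M1 VLX-1005 and 358 ± 28.2 CPM in M1 vehicle libraries, against 148 ± 7.54 CPM in M0 VLX-1005 and 157 ± 9.20 CPM in M0 vehicle libraries, and rose by 1.18 ± 0.08 with vehicle (adjusted p = 1.85e-11). The other members that rose in both transitions were Lrrc8dos, Rbm3os, Acss2os, Frmd8os, Scpep1os, Dhrs13os and Phtf1os, with log2 fold changes of 0.44 to 1.04 between the vehicle groups.

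The 6 largest decreases with vehicle were those of Bach2os, Tnfsf13os, Dnmt3aos, Hopxos, Prss23os and Arhgap15os. Bach2os (chr4:32559680-32571708, minus strand) lies inside Bach2, a transcriptional repressor known from B and T cells. It had 1.094, 0, 0 and 0 CPM in M1 VLX-1005 libraries and 0, 0, 1.114 and 1.072 CPM in M1 vehicle libraries, against 20.97, 22.32, 24.44 and 19.57 CPM in M0 VLX-1005 libraries and 26.07, 16.74, 21.29 and 21.62 CPM in M0 vehicle libraries. In summed counts this was 1 against 113 with VLX-1005 and 2 against 108 with vehicle, a ratio of 0.0134 (95% counting interval 0.000336 to 0.0761) and of 0.0271 (0.00325 to 0.1004). The fall passed the test in both transitions (adjusted p = 8.98e-09 with VLX-1005 and 1.95e-08 with vehicle), but Bach2os reached the minimum of 80 counts through the M0 groups, so that its change was bound up with its selection. The Bach2 row held fewer counts, 0 in M1 VLX-1005 and 1 in M1 vehicle libraries, against 48 in M0 VLX-1005 and 46 in M0 vehicle libraries.

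Tnfsf13os (chr11:69682138-69691141, plus strand) overlaps Tnfsf13, which encodes the cytokine APRIL, and the read-through gene Tnfsfm13. It had 63.45, 78.79, 63.31 and 62.44 CPM in M1 VLX-1005 libraries and 50.08, 55.28, 40.12 and 50.39 CPM in M1 vehicle libraries, against 699.5, 635.3, 572.1 and 609.1 CPM in M0 VLX-1005 libraries and 724.2, 609, 627.4 and 597.4 CPM in M0 vehicle libraries. All M1 libraries were below all M0 libraries (log2 fold change -3.71 ± 0.11, adjusted p = 3.98e-18 with vehicle, and -3.23 ± 0.11, adjusted p = 2.16e-17 with VLX-1005). It was the most abundant member among the 6 largest decreases, and the Tnfsfm13 row opposite to it held 1 count in all. The row of Tnfsf13 itself, which shares 221 exon bases with Tnfsf13os, is not part of this pair, so the pair does not describe it.

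Dnmt3aos (chr12:3859293-3862244, minus strand), inside the gene of the DNA methyltransferase Dnmt3a, held 3 counts in M1 vehicle against 54 in M0 vehicle libraries, a ratio of 0.0814 (95% counting interval 0.0163 to 0.251). With VLX-1005 it held 4 counts in M1 against 33 in M0 libraries (log2 fold change -2.34 ± 0.76, adjusted p = 0.0102). Hopxos (chr5:77094532-77102303, plus strand) held 5 counts in M1 VLX-1005 and 4 in M1 vehicle, against 63 in each M0 group, and fell by 3.30 ± 0.65 on the log2 scale with vehicle (adjusted p = 0.000122). Dnmt3aos and Hopxos reached the minimum of 80 counts through the M0 groups, so that their change was bound up with their selection.

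Prss23os (chr7:89510007-89511873, plus strand) averaged 10.7 ± 5.35 CPM in M1 VLX-1005 and 10.6 ± 3.33 CPM in M1 vehicle libraries, against 88.6 ± 24.3 CPM in M0 VLX-1005 and 98.3 ± 27.8 CPM in M0 vehicle libraries (SD, n = 4 each). It fell by 3.18 ± 0.30 on the log2 scale with vehicle (adjusted p = 3.1e-09). Prss23os also reached the minimum on summed counts through the M0 groups, so that its change was bound up with its selection. Arhgap15os (chr2:44059238-44065324, minus strand), inside the gene of a Rac GTPase-activating protein, averaged 21.6 ± 6.47 CPM in M1 VLX-1005 and 19.9 ± 9.24 CPM in M1 vehicle, against 92.1 ± 16.1 CPM in M0 VLX-1005 and 83.7 ± 7.26 CPM in M0 vehicle libraries. It fell by 2.07 ± 0.25 on the log2 scale with vehicle (adjusted p = 1.95e-07), and its highest M1 library (31.2 CPM) was below its lowest M0 library (73.67 CPM). Junos, opposite to the AP-1 subunit Jun, fell by 1.14 ± 0.11 on the log2 scale in both transitions (adjusted p = 3.03e-09 with vehicle and 3.41e-09 with VLX-1005) and held nearly all counts of its pair, with 2 to 6 counts a group in the Jun row.

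**Figure D3:**
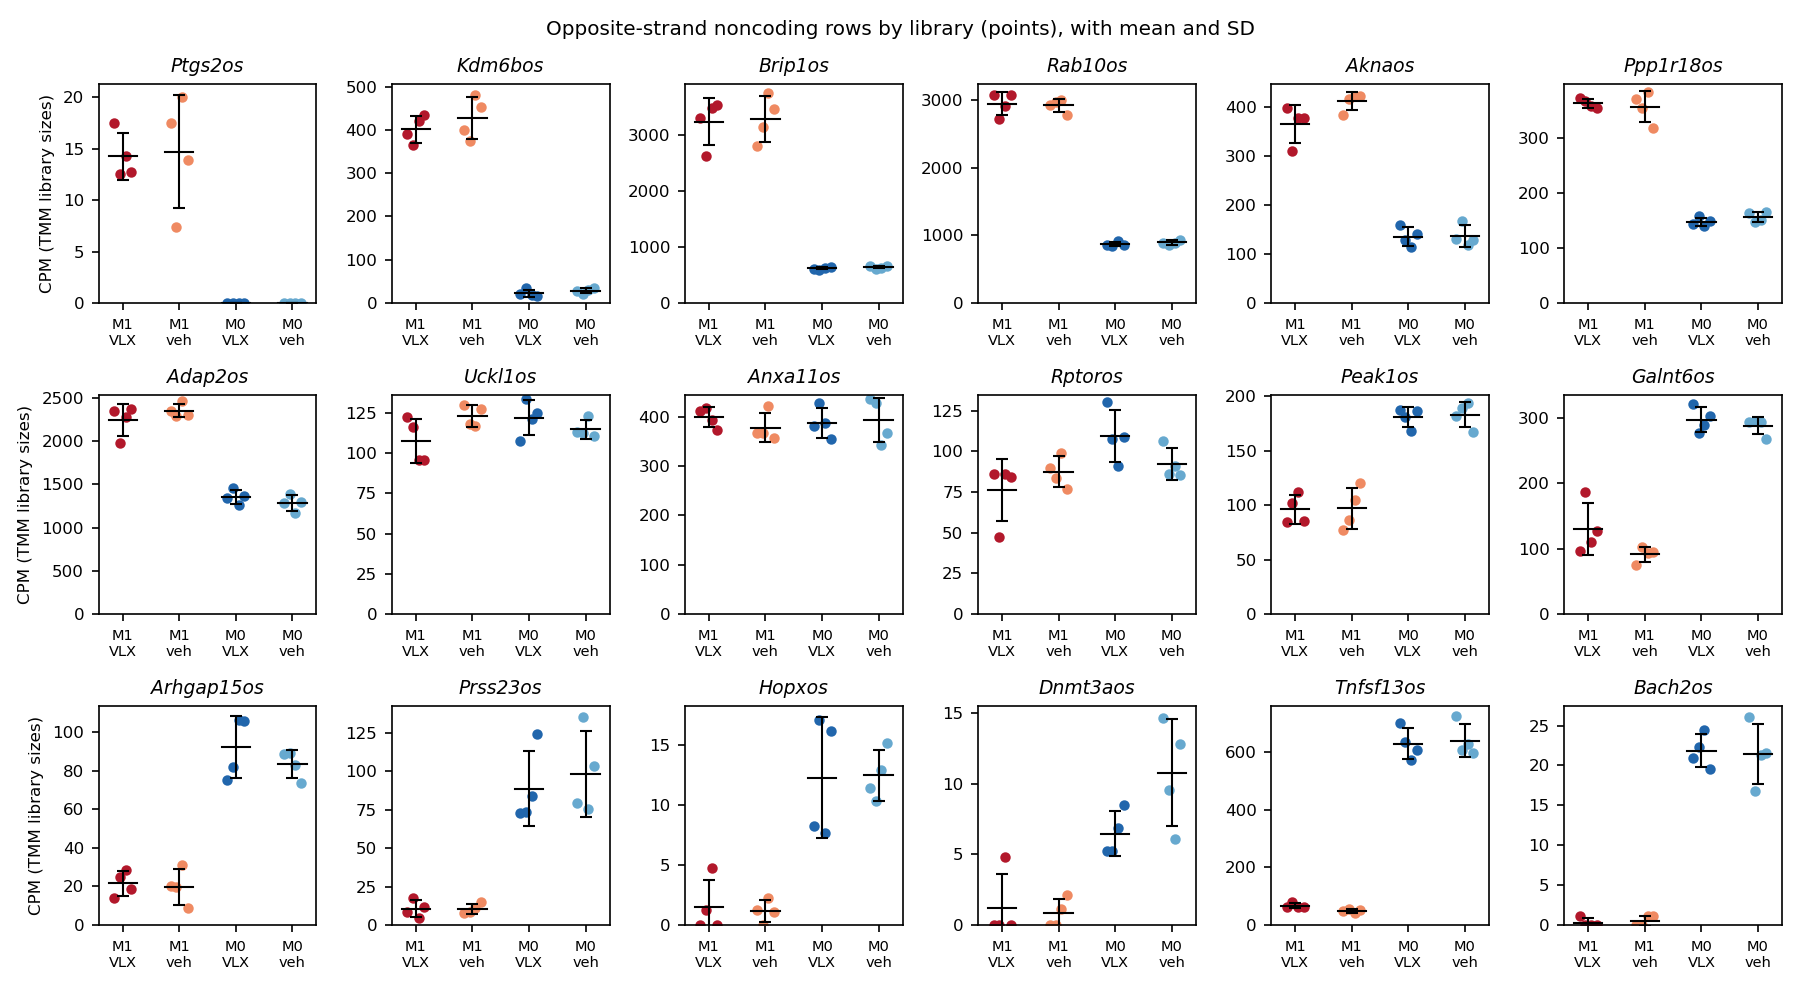
CPM on normalized library sizes (vertical axes, each from 0) in every library of the 18 members whose values are described, with M1 VLX-1005, M1 vehicle, M0 VLX-1005 and M0 vehicle from left to right and black lines for the mean and SD of 4 libraries. Panels run from the largest increase with vehicle, Ptgs2os with no count in M0, to the largest decrease, Bach2os with 0 to 1.114 CPM in M1 libraries.

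The members nearest to no change between the vehicle groups were Anxa11os, Uckl1os and Rptoros. Anxa11os, opposite to an annexin, averaged 399 ± 20.6 CPM in M1 VLX-1005 and 378 ± 29.1 CPM in M1 vehicle, against 387 ± 30.6 CPM in M0 VLX-1005 and 393 ± 45.0 CPM in M0 vehicle libraries. The 95% interval of its log2 fold change was -0.23 to 0.12 with vehicle and -0.13 to 0.21 with VLX-1005. Uckl1os had intervals of -0.12 to 0.32 with vehicle and -0.40 to 0.04 with VLX-1005. Uckl1os averaged 108 ± 13.9 CPM in M1 VLX-1005 and 123 ± 6.69 CPM in M1 vehicle, against 122 ± 10.8 CPM in M0 VLX-1005 and 115 ± 5.70 CPM in M0 vehicle libraries. Rptoros, opposite to the mTORC1 subunit Rptor, had 86.42, 47.52, 86.00 and 84.41 CPM in M1 VLX-1005 libraries and 90.14, 83.53, 99.18 and 77.19 CPM in M1 vehicle libraries, against 130.3, 107.9, 90.9 and 108.9 CPM in M0 VLX-1005 libraries and 106.7, 86.08, 91.26 and 85.68 CPM in M0 vehicle libraries. The vehicle groups overlap and the VLX-1005 groups do not. Rptoros did not pass with vehicle (-0.08 ± 0.16, adjusted p = 0.681) and was lower with VLX-1005 (-0.52 ± 0.16, adjusted p = 0.00794). That difference of Rptoros between the transitions was -0.44 ± 0.23 (unadjusted p = 0.0688, adjusted p = 1.0).

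Side by side, the transitions with VLX-1005 and with vehicle shared 14 higher and 21 lower members. 5 members were lower with VLX-1005 alone (Frs3os, Ict1os, Mccc1os, Rptoros and Tnk2os) and 4 with vehicle alone (Arf4os, Far1os, Nudt12os and Zeb2os), while 13 passed in neither. Of these, Frs3os, Tnk2os and Nudt12os reached the minimum of 80 counts through the M0 groups, so that their change was bound up with their selection. With the replicate number as a block, Mccc1os no longer passed with VLX-1005, and Zeb2os did. When the 2 transitions were tested against each other, 0 of 57 members passed (0.0% of all rows) with edgeR, DESeq2 or limma-voom. An unadjusted p under 0.05 was reached by 2 members with edgeR, 2 with DESeq2 and 1 with limma-voom (4.29% of all rows with edgeR), so the 9 members called in a single transition were not shown to differ between them. With the 3 M0 libraries that stood apart left out, 15 members were higher and 22 lower with vehicle, and 14 were higher and 24 lower with VLX-1005. Leaving these libraries out ended the calls of Arf4os and Far1os with vehicle, of Mccc1os with VLX-1005 and of Faddos in both. Leaving out 1 library at a time ended the calls of Arf4os, Faddos, Fam219aos, Man2c1os and Nudt12os with vehicle and of Cdk19os, Faddos, Fam219aos and Mccc1os with VLX-1005, under at least 1 library each.

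Direct comparisons of VLX-1005 with vehicle called no member. In M1 cells 0 of 57 members passed with edgeR, DESeq2 or limma-voom (0.0% of all rows with edgeR), and each tool had 2 members at an unadjusted p under 0.05 (3.71% of all rows with edgeR). In M0 cells 0 of 57 passed with each tool (0.0% of all rows with edgeR), and each had 0 members at an unadjusted p under 0.05 (2.98% of all rows with edgeR). The median size of the members' log2 differences was 0.09 in M1 and 0.08 in M0 cells, beside median SEs of 0.17 and 0.16. In M1 cells the libraries of VLX-1005 and vehicle did not overlap for 1 higher member, Tnfsf13os (1.16% of all rows), and 1 lower member, Dhrs13os (0.811% of all rows). In M0 cells they did not overlap for 1 higher member, Tnk2os (1.36% of all rows), and for 0 lower members (1.1% of all rows).

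The 2 members with an unadjusted p under 0.05 in M1 cells with edgeR were Tnfsf13os and Galnt6os. For Tnfsf13os, the 4 M1 VLX-1005 libraries (62.44 to 78.79 CPM) all lay above the 4 M1 vehicle libraries (40.12 to 55.28 CPM), a log2 difference of 0.45 with a 95% interval of 0.19 to 0.71 (unadjusted p = 0.00288, adjusted p = 0.998). In M0 cells the same difference was -0.02, with an interval of -0.19 to 0.14. Galnt6os lies opposite to Galnt6, an enzyme of protein O-glycosylation. It had 96.27, 186.3, 109.9 and 127.2 CPM in M1 VLX-1005 libraries, against 75.12, 102.0, 93.61 and 95.42 CPM in M1 vehicle libraries. These groups overlap, with a log2 difference of 0.50 and an interval of 0.19 to 0.80 (unadjusted p = 0.00413, adjusted p = 0.998). Without M1 VLX-1005 2 the difference was 0.28 for Galnt6os and 0.37 for Tnfsf13os.

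For 13 members, in 15 pairs, both rows passed the filter and shared exon bases, so that the ratio of member to opposite row could be compared between groups. The ratio was taken as log2 of CPM + 2 in the member row over CPM + 2 in the opposite row and tested with limma over all 679 such pairs of the table. It changed in 8 of 15 member pairs with vehicle and in 8 with VLX-1005, beside 58.6% and 55.5% of all pairs. With the 3 M0 libraries that stood apart left out, 7 pairs changed with vehicle and 6 with VLX-1005. 0 of 15 changed between VLX-1005 and vehicle in M1 or in M0 cells, or between the transitions (0.0% of all pairs in each), and 0 had an unadjusted p under 0.05 in limma.

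Ppp1r18os rose, while the Nrm row, which did not pass (adjusted p = 0.05), had 22.0 ± 3.79 CPM in M1 VLX-1005 and 22.0 ± 7.52 CPM in M1 vehicle, against 31.4 ± 10.2 CPM in M0 VLX-1005 and 33.6 ± 4.26 CPM in M0 vehicle libraries. Their ratio rose by 1.78 ± 0.25 with vehicle (adjusted p = 3.6e-06) and by 1.72 ± 0.25 with VLX-1005 (adjusted p = 5.85e-06). The ratio of Ppp1r18os to Ppp1r18 also rose, by 0.88 ± 0.24 with vehicle (adjusted p = 0.00346) and by 0.68 ± 0.24 with VLX-1005 (adjusted p = 0.0195, or 0.0667 with the 3 M0 libraries left out).

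Peak1os, inside the gene of a focal adhesion pseudokinase, fell in M1 cells, where the Peak1 row had the higher values. Peak1os averaged 96.2 ± 13.6 CPM in M1 VLX-1005 and 97.1 ± 19.1 CPM in M1 vehicle, against 181 ± 9.03 CPM in M0 VLX-1005 and 183 ± 11.7 CPM in M0 vehicle libraries, a fall of 0.91 ± 0.13 on the log2 scale with vehicle (adjusted p = 1.46e-06). The Peak1 row averaged 14.8 ± 8.09 CPM in M1 VLX-1005 and 13.2 ± 4.64 CPM in M1 vehicle, against 6.78 ± 5.27 CPM in M0 VLX-1005 and 6.08 ± 4.16 CPM in M0 vehicle libraries, and did not pass alone (adjusted p = 0.108 with vehicle). The ratio of Peak1os to Peak1 fell by 1.92 ± 0.53 with vehicle (adjusted p = 0.00425) and by 2.03 ± 0.53 with VLX-1005 (adjusted p = 0.00267).

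Brip1os, Rab10os and Adap2os rose by other amounts than the rows opposite to them. Brip1os rose more than Med13, whose row had 32.8 ± 9.81 CPM in M1 VLX-1005 and 31.4 ± 10.3 CPM in M1 vehicle, against 7.39 ± 0.80 CPM in M0 VLX-1005 and 10.3 ± 1.83 CPM in M0 vehicle libraries, and the ratio rose by 0.94 ± 0.18 with vehicle (adjusted p = 0.000106). Against Ints2, an Integrator subunit that Brip1os overlaps by 512 exon bases and whose row fell by 0.77 ± 0.24 on the log2 scale, the ratio rose by 3.09 ± 0.24 (adjusted p = 6.43e-10). The ratio of Rab10os to Rab10 rose by 1.29 ± 0.19 (adjusted p = 4.59e-06), with the Rab10 row itself not passing (adjusted p = 0.0565). The Adap2 row rose by 2.02 ± 0.37, more than Adap2os, so that the ratio of Adap2os to Adap2 fell by 0.73 ± 0.26 (adjusted p = 0.0184, or 0.0569 with the 3 M0 libraries left out and 0.788 with 10 CPM added in place of 2). Dnmt3aos fell more than Dnmt3a with vehicle (ratio -1.32 ± 0.45, adjusted p = 0.0162, or 0.122 with 10 CPM added), and did not pass with VLX-1005 (-0.61 ± 0.45, adjusted p = 0.252). The ratio of Bach2os to Bach2 passed with VLX-1005 alone (-1.05 ± 0.42, adjusted p = 0.0378) and rests on M1 rows with 0 to 2 counts a group. This call was lost with 0.5 CPM added (adjusted p = 0.236) and with the 3 M0 libraries left out (adjusted p = 0.156). With M1 rows this low, the 2 CPM added draw the M1 log2 ratio toward 0. In the edgeR fits of the single rows the order was the other way, with -5.75 ± 0.57 for Bach2os and -6.32 ± 1.07 for Bach2. Which row of this pair fell more is thus not settled. The ratio of Brip1os to Med13 rose less with VLX-1005, by 0.52 ± 0.18 (adjusted p = 0.0152, or 0.125 with 0.5 CPM added).

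The ratio did not pass in either transition for Zeb2os, Sp3os, Acss2os, Arf4os, Ino80dos (to Ndufs1) and Zfp335os. In the most abundant of these, Zeb2os had 465 ± 39.0 CPM in M1 VLX-1005 and 442 ± 35.5 CPM in M1 vehicle, against 522 ± 31.3 CPM in M0 VLX-1005 and 523 ± 27.4 CPM in M0 vehicle libraries. The Zeb2 row had 387 ± 9.60 CPM in M1 VLX-1005 and 397 ± 16.9 CPM in M1 vehicle, against 434 ± 24.1 CPM in M0 VLX-1005 and 458 ± 49.2 CPM in M0 vehicle libraries. The ratio of the pair differed by -0.04 ± 0.13 with vehicle. Sp3os, opposite to the transcription factor Sp3, had 67.98 CPM in M0 VLX-1005 3 and 67.69 CPM in M0 vehicle 3, with 35.07 CPM in M0 vehicle 2 and 14.46 to 26.96 CPM in the other M0 libraries. These 3 high values were in the libraries that stood apart on the second component, and Sp3os did not pass with vehicle either with them (-0.84 ± 0.44, adjusted p = 0.1) or without them (0.09 ± 0.36, adjusted p = 0.844).

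**Figure D4:**
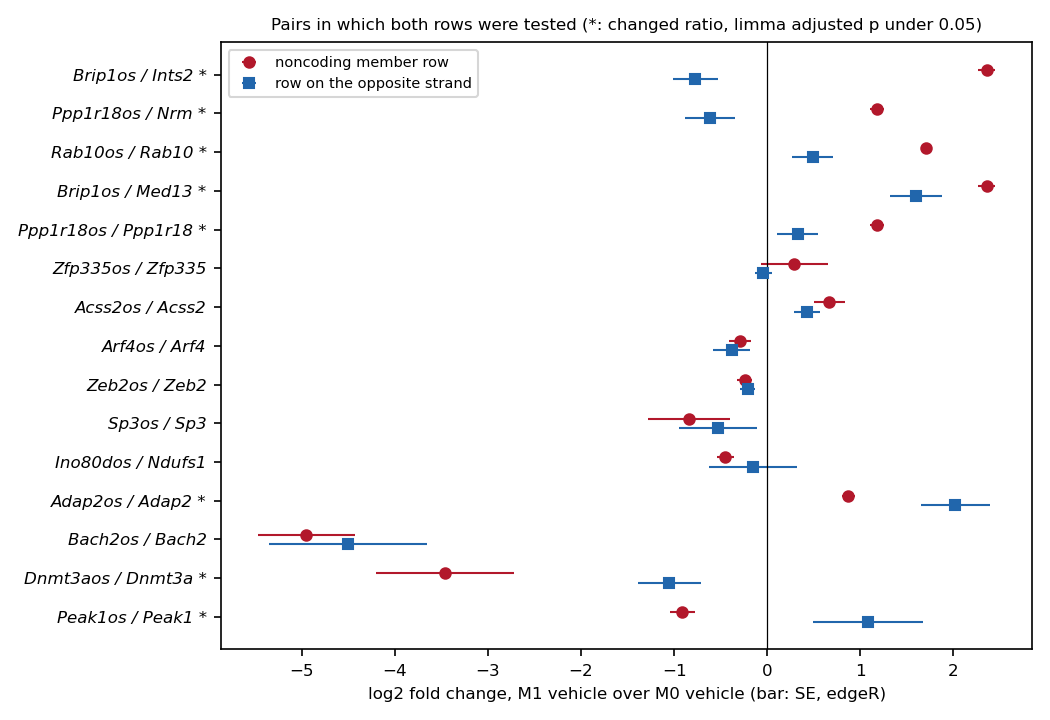
Log2 fold change between M1 vehicle and M0 vehicle, with its SE, of the member row (circles) and the opposite row (squares) in the 15 pairs in which both rows were tested. Pairs are ordered by the change of their ratio, from 3.09 for Brip1os over Ints2 to -1.92 for Peak1os over Peak1, and an asterisk marks the 8 pairs whose ratio changed.

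Other noncoding RNAs gave little to compare with. Of a list of 30 long noncoding RNAs known from macrophages or from most cells, 27 were in the table and 1 was tested. That row, Tug1, did not pass with vehicle (-0.41 ± 0.20, adjusted p = 0.0717), was lower with VLX-1005 (-0.61 ± 0.20, adjusted p = 0.0114), and shares exon bases with Morc2a on the other strand. Among the rows too low to test, Malat1 held 54, Neat1 23 and Gas5 22 counts over the 16 libraries. Whether the strand of counting kept these rows low was not tested, so they do not show how much of these RNAs the cells held.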

How the data were processed

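Strand-specific polyA libraries were sequenced on a NovaSeq by the authors, who deposited raw counts per Ensembl gene. The submitters' processing notes name Trimmomatic, FastQC, HTSeq, DESeq2 and mm10, and the study's methods give HISAT2 as the aligner. Versions, annotation and strand setting of the counting are not given in the sources used here. IDs were matched without version to GENCODE M21 (48058 of 48440 rows, 54 of 59 members with the same version). The 382 unmatched rows held 0.47% of counts. Exons of each gene were merged, and the row on the other strand sharing most exon bases was taken as opposite. Older symbols of naming genes came from RefSeq (GRCm38.p6).

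All 16 libraries were fitted together with edgeR 4.0.16 (filterByExpr, TMM, quasi-likelihood F test, Benjamini-Hochberg over 3453 rows, threshold 0.05). CPM used TMM library sizes. Pair ratios were fitted with limma 3.58.1 (trend, robust) on log2(CPM + 2). DESeq2 1.42.0 and limma-voom were alternatives, beside other filters, normalizations, call rules, a replicate block, fits of only the groups compared and leaving libraries out. R 4.3.3 and Python 3.11.15 were used, and the fits were tested on simulated data. Members, gene lists and tests were chosen with earlier results of these data known. Members described by their values in each group were the 3 most abundant members, the 6 largest increases and decreases that passed with vehicle, the smallest unadjusted p-values for VLX-1005, up to 6 changed pairs and the 3 members nearest to no change. Junos, Zeb2os and Sp3os were added after their values were seen. Counting intervals cover counting error only.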

Additional observations from a re-analysis of the deposited data

Results flagged for a closer look

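In 6 of 70 groups of 4 libraries looked at, over 18 members, 1 library lay far from the other 3 by Dixon's criterion, where chance flags about 1 in 20 groups. Tnfsf13os had 78.79 CPM in M1 VLX-1005 2, with 62.44 to 63.45 CPM in the other M1 VLX-1005 libraries. Rptoros had 47.52 CPM in the same library, with 84.41 to 86.42 CPM in the other 3. Dnmt3aos had 4.778 CPM in M1 VLX-1005 3 and Bach2os had 1.094 CPM in M1 VLX-1005 1, each with 0 in the other 3 libraries. With 3 libraries at 0, any count in the remaining library makes the gap as large as the range. The flags of Dnmt3aos and Bach2os were thus fixed in advance, and the chance rate does not apply to them. Aknaos had 384.4 CPM in M1 vehicle 1, with 417.7 to 423.5 CPM in the other M1 vehicle libraries. Galnt6os had 268.3 CPM in M0 vehicle 4, with 293.6 to 295.7 CPM in the other M0 vehicle libraries.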

How the results depend on the processing

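Of 936 alternative values of named members, 930 kept direction and side of the threshold. Anxa11os changed sign, at -0.05 without a filter, -0.03 when rows averaged 50 counts or more and -0.01 with upper quartile normalization in the VLX-1005 groups. With 1 library left out, it lay between -0.12 and 0.01 in the vehicle groups and Rptoros between -0.15 and 0.01, with 0.01 for both without M0 vehicle 1. Uckl1os passed with VLX-1005 at that higher minimum (-0.25, adjusted p = 0.0375). When calls needed more than a 2-fold change at an unadjusted p under 0.05, 7 members were higher and 13 lower with vehicle, and 7 higher and 15 lower with VLX-1005. When both rows averaged 50 counts or more, 3 pairs remained, of which 0 changed with vehicle and 1 with VLX-1005 (Arf4os to Arf4, 0.55). Leaving out 1 library at a time gave 14 to 16 higher and 22 to 26 lower members with vehicle, 14 higher and 23 to 27 lower with VLX-1005, 0 for each comparison of VLX-1005 with vehicle and for the difference between transitions, and 7 to 9 and 6 to 9 changed pairs. With 0.5 CPM added in place of 2, 8 pairs changed with vehicle and 6 with VLX-1005, and with 10 CPM added, 7 and 8. The replicate numbers were not taken to pair the samples (correlations of deviations from -0.07 to 0.46), although, as a hint from the data and not the design, each M1 vehicle library correlated best with the M1 VLX-1005 library of its number (r of 0.04 to 0.091), as did M0 vehicle libraries 3 and 4 with their M0 counterparts. No M0 library did so with the M1 library of its number. With the replicate block, 15 members were higher and 25 lower with vehicle and 14 and 26 with VLX-1005, 8 pairs changed in each, and 0 members passed for VLX-1005 against vehicle. N4bp2os then passed with vehicle and Zeb2os with VLX-1005, and Mccc1os no longer passed with VLX-1005. Over the 23 to 25 settings in which each could be fitted, 33 of 39 calls with vehicle and 35 of 40 with VLX-1005 held throughout. Of the members not called, 13 with vehicle and 10 with VLX-1005 gained a call or changed sign in at least 1 setting. Thus 38 of 57 members with vehicle and 42 with VLX-1005 kept call and sign in all settings. Frs3os, Ict1os and Tnk2os, lower with VLX-1005 alone in the main fit, were also called with vehicle in some settings. Totals of 939584 to 1158095 counts left 2 members untested and most opposite rows too low to test.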
